A study of Homo sapiens with 20 samples.

Results

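This section describes 8 genes of lipid synthesis, ACSL1, ACSL3, ACSL4, ACSL5, ACLY, ACACA, FASN and HMGCS1, in HepG2 cells, a human liver cancer line. They were chosen by name, with measured values in view: skipping of an ACSL4 exon after FUBP1 knockdown (KD) was among the values that chose them, so everything from that KD is given as a description. Counts past the test threshold are printed there with the share of the whole table, and nothing is read from them. The genes are 8 of the 28278 in the RIP table. They account for 40 of the 19792 skipped exon (SE) events listed for the FUBP1 KD, 56 of 32990 for the U3 KD and 17 of 7065 for the FBL KD.

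The study asked whether FUBP1, a single-stranded nucleic acid binding protein that takes part in splice site recognition, links 2′-O-methylation of RNA to splicing. Fibrillarin (FBL) is the enzyme that places this mark on RNA together with small nucleolar RNAs, and U3 is the small nucleolar RNA of that class that serves the processing of the 18S ribosomal RNA precursor. HepG2 cells were transfected with siFUBP1 or the control siCtrl2 (48 h, 3 libraries each), with a U3 antisense oligonucleotide (U3 ASO) or GFP ASO (72 h, 3 libraries each), or with siFBL or siCtrl (48 h). From the siFBL and siCtrl cells, RNA was recovered by FUBP1 immunoprecipitation (RIP, 2 libraries per condition) and from the matching input (2 libraries per condition), and the SE events of the FBL KD were taken from the inputs. Each KD relied on 1 siRNA or 1 ASO, in 1 cell line. The methods call the replicates biological, but the labels do not tie them to separate cultures, so the p-values measure the spread between these libraries. For SE events that spread was shared across the events of a table and not taken from each event alone.

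Fatty acids are made in the cytosol in a short chain of steps. ACLY splits citrate into acetyl-CoA, ACACA carboxylates acetyl-CoA to malonyl-CoA, and FASN joins these units into palmitate. HMGCS1 takes acetyl-CoA the other way, into HMG-CoA, the precursor of mevalonate and cholesterol. The long-chain acyl-CoA synthetases (ACSL) attach coenzyme A to free fatty acids so that they can be built into lipids or oxidized. ACSL1 is the main form in liver, ACSL3 sits at lipid droplets and the endoplasmic reticulum, ACSL4 prefers arachidonic acid, and ACSL5 is found at mitochondria and the endoplasmic reticulum. In hepatocytes most genes of fatty acid and sterol synthesis are driven by the SREBP transcription factors, which are encoded by SREBF1 and SREBF2.

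The events are counts of reads across splice junctions. The libraries held 2693397 to 4474350 such reads in the FUBP1 KD table, 11249641 to 13321799 in the U3 KD table and 910779 to 1142189 in the FBL KD table. The libraries of a group are numbered by their place in the lists of reads, which the tables do not tie to sample labels. FUBP1 fell to 14.9% of its control junction-read level after siFUBP1, and the mean count of FBL after siFBL was 15.9% of that after siCtrl, where each mean is over RIP and input libraries and was scaled on its own. U3 itself is not a row of these tables. The 8 hepatocyte genes looked up (ALB, AFP, APOA1, APOB, SERPINA1, TTR, FGB and TF) had mean counts of 3544 or more in the siCtrl RIP and input libraries, while the 9 leukocyte, fibroblast and endothelial genes had 92.8 or fewer.

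Several of the alternative exons of these genes are noncoding. They lie in the 5′ untranslated region, so that skipping them changes the leader of the mRNA and not the protein. The bases just before each exon are shown here because they hold the 3′ splice site (AG in capitals), read from hg38 on the strand of the gene, 40 intronic bases each:
ACSL4 exon 2 (chrX:109696197-109696236, minus strand): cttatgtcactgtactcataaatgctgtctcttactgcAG
HMGCS1 exon 2, 79-base form (chr5:43307845-43307884, minus strand): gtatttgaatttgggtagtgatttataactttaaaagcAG
HMGCS1 exon 2, 59-base form (chr5:43307825-43307864, minus strand): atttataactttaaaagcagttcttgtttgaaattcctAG
ACSL3 59-base exon (chr2:222887790-222887829, plus strand): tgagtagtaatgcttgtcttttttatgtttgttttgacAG
ACSL3 107-base exon (chr2:222900634-222900673, plus strand): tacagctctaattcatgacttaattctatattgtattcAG
ACLY 30-base exon (chr17:41896650-41896689, minus strand): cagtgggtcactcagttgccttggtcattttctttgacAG
FUBP1 is known for binding U-rich sequence. The ACSL4 and ACLY windows each held 15 T bases, and the same number or more stood before 57.9% of the 31955 distinct exons listed in the 3 tables, where the median was 16. The ACSL3 59-base exon had 21, a number reached by 13.6% of exons. The 2 HMGCS1 windows overlap, since the splice sites of the 79-base and the 59-base form are 20 bases apart.

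ACSL4 exon 2 (chrX:109696144-109696196, 53 bases, noncoding in the MANE Select transcript, GENCODE v44) was measured against 3 different starts of exon 3. Of these, 2 are 3 bases apart, at 109683375 (the MANE Select form) and 109683372, and the other, at 109683666, gives a longer exon 3 of 531 bases with 351 coding bases in place of 228. They are shown for this tandem arrangement, with 24 intronic and 6 exonic bases each and the AG of the splice site used in capitals:
start at 109683375 (chrX:109683370-109683399, minus strand): tggtattttcttaccaatgccaAGaagaaa
start at 109683372 (chrX:109683367-109683396, minus strand): tattttcttaccaatgccaagaAGaaaaac
start at 109683666 (chrX:109683661-109683690, minus strand): ttggttcattgtcatcacctacAGgcgtac
The 3 events share the first exon, whose boundary is at 109733139, and reads across the junction of exons 1 and 2 count for each of them.

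After FUBP1 KD, less ACSL4 mRNA carried exon 2. With the MANE Select start of exon 3, the inclusion level (inclusion reads per base of junction sequence, as a share of inclusion plus skipping) was 0.889, 0.931 and 0.858 in the siCtrl2 libraries and 0.733, 0.765 and 0.744 in the siFUBP1 libraries. The means were 0.893 ± 0.0365 and 0.748 ± 0.0164 (SD, n = 3 each), a difference of -0.145, and the groups did not overlap. Behind these levels stood 65, 57 and 85 skipping reads in the controls and 219, 169 and 164 after the KD, against 647 to 1044 inclusion reads. With the far start of exon 3, the level went from 0.970 ± 0.00916 to 0.823 ± 0.0316, again without overlap, as skipping reads went from 4, 9 and 7 to 63, 45 and 32. With the start 3 bases downstream, the groups overlapped: the level was 0.902 ± 0.0926 in the controls, with single libraries at 0.987, 0.916 and 0.803, and 0.861 ± 0.0380 after the KD. By the quasi-binomial F test used for the other KDs, 2 of the 40 events passed the threshold (adjusted p under 0.1), both of ACSL4 exon 2, beside 0.154% of the 16213 events tested. This contrast took part in the choice of the genes, so the count is no evidence about them. With limma on log2 odds 0 of the 40 passed, and leaving out single libraries left 0 (siCtrl2 library 2) or 1 (each of the others).

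**Figure D1:**
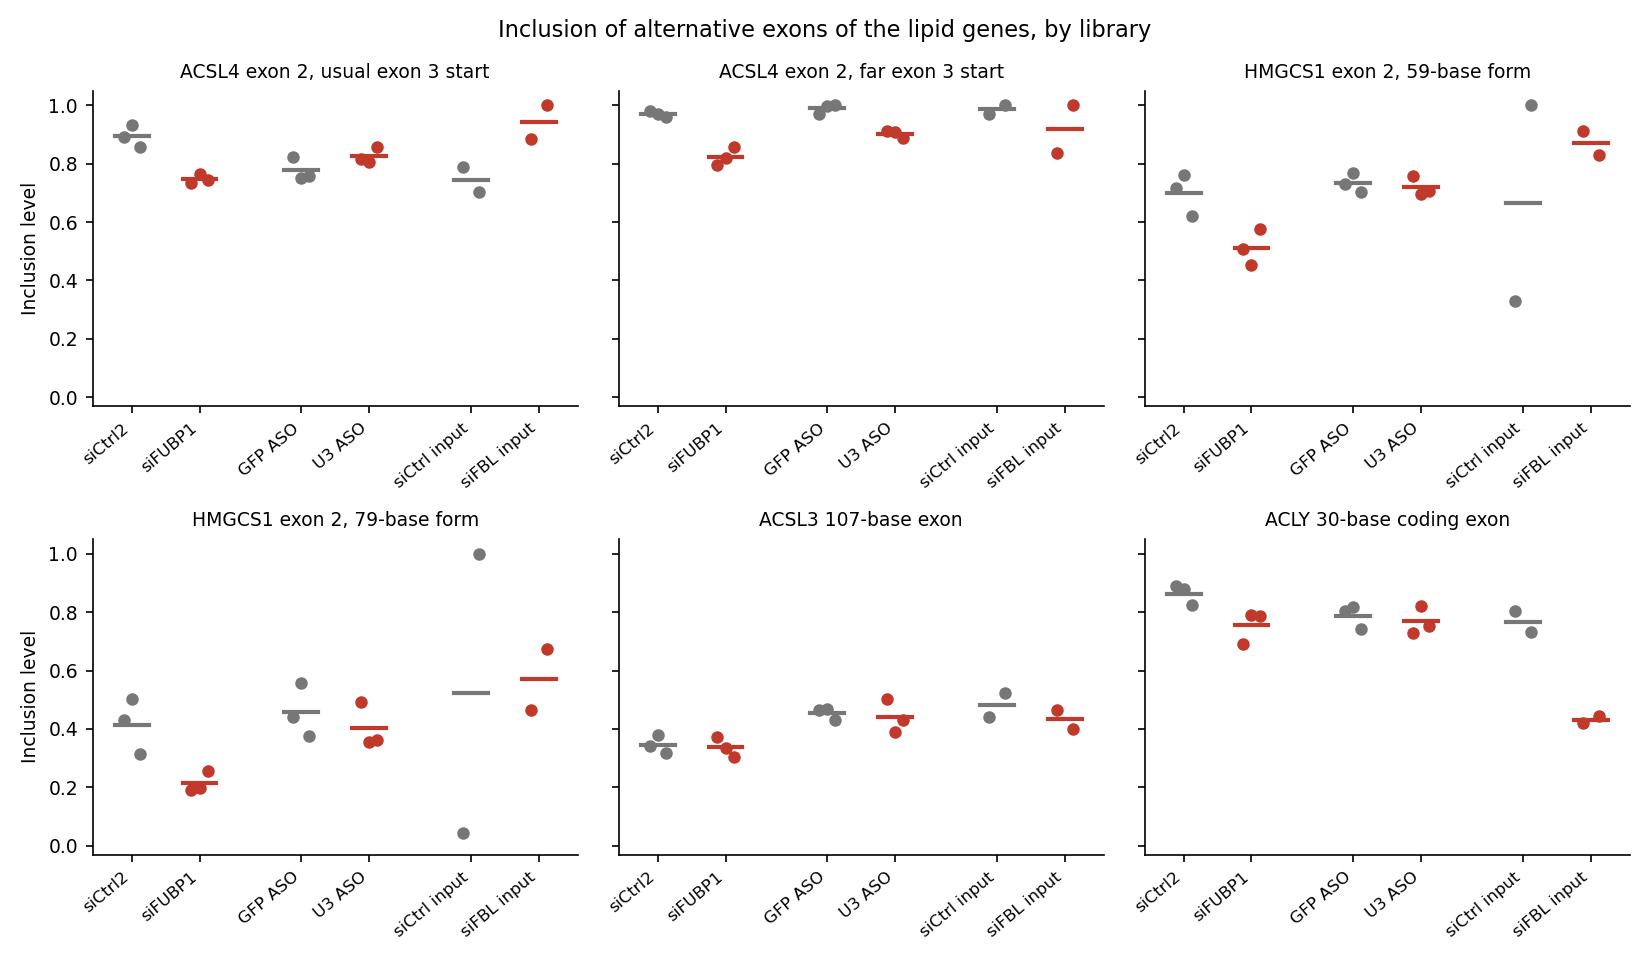
Inclusion level of 6 alternative exon events (y axis, share from 0 to 1) in each library of the 3 knockdowns (x axis, grey for controls and red for the KD), with a bar at the group mean. ACSL4 exon 2 is shown with the MANE Select ("usual") and the far start of exon 3. The siFUBP1 libraries lie below their controls for both ACSL4 events, for both HMGCS1 forms and for the ACLY exon, while the ACSL3 exon stays near 0.34 in both groups.

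HMGCS1 exon 2 also lies in the 5′ untranslated region. It was listed as a 59-base form (chr5:43307766-43307824), which is in the MANE Select transcript, and as a 79-base form (chr5:43307766-43307844) that GENCODE v44 does not hold. From the first exon at 43313356, the 59-base form had levels of 0.717, 0.761 and 0.620 in the siCtrl2 libraries and 0.508, 0.452 and 0.576 in the siFUBP1 libraries, which is 0.699 ± 0.0724 against 0.512 ± 0.0622. The 79-base form had 0.431, 0.501 and 0.313 against 0.191, 0.198 and 0.258, or 0.415 ± 0.0951 and 0.216 ± 0.0367. Neither pair of groups overlapped. The 2 forms rest on the same skipping reads, 51, 54 and 66 in the controls and 97, 132 and 79 after the KD, so they are not separate observations. From the other first exon, at 43313022, exon 2 was nearly always included, and the level of the 59-base form was 0.990 ± 0.0182 and 0.936 ± 0.0562 in overlapping groups.

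ACLY has a short alternative coding exon of 30 bases (chr17:41896620-41896649, exon 14 of 29 in the MANE Select transcript). It adds 10 codons without a shift of frame, and 2 of the 10 GENCODE transcripts of the gene carry it. It is printed whole, since it is the coding exon whose inclusion varied:
ACLY 30-base exon (chr17:41896620-41896649, minus strand): attcagtcccaagtccaagatccctgcaag
Its level was 0.888, 0.878 and 0.824 in the siCtrl2 libraries and 0.690, 0.789 and 0.788 after FUBP1 KD. The difference was -0.108 between groups that did not overlap (0.863 ± 0.0343 and 0.756 ± 0.0569).

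In the other exons with more than 1 form, the groups overlapped after FUBP1 KD. The ACSL3 107-base exon (chr2:222900674-222900780, exon 3 of 17 in MANE Select, noncoding) was included at 0.346 ± 0.0298 and 0.337 ± 0.0349 when it followed the 59-base exon, from 650 reads per library on average. The ACSL3 59-base exon (chr2:222887830-222887888, the second exon, also noncoding) was at 0.955 ± 0.0192 and 0.947 ± 0.0137 before the 107-base exon. When the 107-base exon was joined directly to the first exon, its level spread from 0.496 to 1.00 among the siFUBP1 libraries. The ACSL1 96-base coding exon (chr4:184765891-184765986) had 3 skipping reads in all, in 2 siFUBP1 libraries, and levels of 1.00 in the controls and 0.922 ± 0.0994 after the KD. The best covered events of FASN (chr17:82081164-82081352, 189 bases) and ACSL4 (chrX:109661531-109661645, 115 bases), both coding, were included at 0.999 or more in both groups. That of ACSL5 (chr10:112426788-112426859, 72 bases, coding) was at 1.00 in every control library and at 0.993, 0.990 and 0.984 after the KD, a small separation. ACACA had no event in this table.

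After U3 KD, none of the 54 tested events of the 8 genes was called, beside 0.183% of the 30110 events tested. Of the 54, 4 had an unadjusted p under 0.05 in the quasi-binomial F test, as had 880 of the 30110, and limma on log2 odds called none of the 54 and none of the 30110. ACSL4 exon 2 had most reads with the MANE Select start of exon 3, where the level was 0.824, 0.751 and 0.759 in the GFP ASO libraries and 0.817, 0.806 and 0.856 in the U3 ASO libraries. The groups overlapped, with a difference of +0.0486 and means of 0.778 ± 0.0400 and 0.826 ± 0.0264. With the far start, the level was 0.971, 0.996 and 1.00 in the controls and 0.913, 0.908 and 0.886 with U3 ASO, which did not overlap but was not past the threshold (difference -0.0868, quasi-binomial F test moderated with limma, adjusted p = 0.878). The 2 events thus differed in opposite directions, and whether their changes differ from each other was not tested. The level of FUBP1 itself (RPM, junction reads per 1000000 of the table) was 82.4 ± 4.70 in the GFP ASO libraries and 56.1 ± 5.53 with U3 ASO, 68.0% of control, and its part in these values was not tested.

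For the other alternative exons of HMGCS1, ACLY and ACSL3 the U3 ASO and GFP ASO libraries overlapped. HMGCS1 exon 2 from the first exon at 43313356 was at 0.734 ± 0.0326 and 0.719 ± 0.0334 for the 59-base form, and at 0.457 ± 0.0918 and 0.403 ± 0.0768 for the 79-base form, with overlap in both. The ACLY 30-base exon was at 0.787 ± 0.0407 and 0.768 ± 0.0480. The ACSL3 107-base exon was at 0.454 ± 0.0212 and 0.441 ± 0.0557 after the 59-base exon, and at 0.812 ± 0.185 and 0.674 ± 0.0376 when joined to the first exon. Without overlap, but also not called, were 3 coding exons, and how many of all events did not overlap is not given here. The HMGCS1 126-base exon (chr5:43298009-43298134) was at 0.971 ± 0.0208 and 0.999 ± 0.00125. The ACSL3 151-base exon (chr2:222921280-222921430) was at 1.00 in every control library and at 0.989 ± 0.00426 with U3 ASO, and the ACSL3 173-base exon (chr2:222927017-222927189) at 0.999 ± 0.00105 and 0.984 ± 0.0058. The ACACA events lay on an alternate contig of chromosome 17 and drew most of their inclusion reads from single libraries, 157 from 1 U3 ASO library, 81 from another and 240 from 1 GFP ASO library in 3 different events. No inclusion level of ACACA is therefore compared.

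The U3 table, the deepest of the 3, also resolved a pair of alternative coding exons in ACSL1. Both are 78 bases long and lie 66 bases apart, and they agree at 37 of 78 aligned positions (47.4%). They are shown because skipping of both was almost never read, with the differing bases in capitals:
ACSL1 exon 11 of MANE Select (chr4:184770399-184770476, minus strand): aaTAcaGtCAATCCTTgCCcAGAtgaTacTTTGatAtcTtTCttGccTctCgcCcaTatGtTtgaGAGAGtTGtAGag
ACSL1 alternative exon (chr4:184770255-184770332, minus strand): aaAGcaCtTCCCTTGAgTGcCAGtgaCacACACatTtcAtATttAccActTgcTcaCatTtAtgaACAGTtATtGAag
The alternative exon, which 3 of 16 GENCODE transcripts hold, was joined to exon 11 in few mRNAs: its level between exon 11 and the next common exon was 0.0175 ± 0.0112 in the GFP ASO libraries and 0.0463 ± 0.0513 with U3 ASO. With the alternative exon as its neighbour, exon 11 was at 0.877, 0.789 and 1.00 in the GFP ASO libraries. With U3 ASO it was at 0.798, 0.754 and 0.840, in overlapping groups. The skipping reads there join the alternative exon directly to the exon before exon 11. They numbered 6, 10 and 0 in the controls and 12, 15 and 11 with U3 ASO. With the outer exons alone as neighbours, exon 11 was included at 0.997 ± 0.00588 and 1.00, from 176 reads per library, and the alternative exon at 0.967 ± 0.0567 and 1.00, from 14. A junction of the outer exons with neither in between was read 1 time, in a GFP ASO library, and none of these events was called.

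After FBL KD, none of the 17 events of the 8 genes was called, and none of the 5218 events tested in the table either (0%). With an unadjusted p under 0.05 there were 3 of the 17 events and 48 of the 5218, and limma on log2 odds called none of them. The ACLY 30-base exon had the clearest separation: its level was 0.803 and 0.732 in the siCtrl inputs and 0.420 and 0.445 in the siFBL inputs. Inclusion reads went from 98 and 82 to 53 and 50, and skipping reads from 20 and 25 to 61 and 52, a difference of -0.335 (means 0.768 ± 0.0503 and 0.432 ± 0.0176, n = 2 each, adjusted p = 0.931). The ACLY exon was thus lower in the siFUBP1 and in the siFBL libraries than in their own controls, while the U3 ASO and GFP ASO libraries overlapped. These 3 tables share no libraries, and the differences between the 3 KDs were not tested.

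The noncoding exons differed without a call. The ACSL3 59-base exon, joined to the exon at 222908733, was at 0.995 and 0.997 in the siCtrl inputs and at 0.956 and 0.966 in the siFBL inputs, a separation of -0.0345 from 1064 reads per library. ACSL4 exon 2 with the MANE Select start of exon 3 was at 0.787 and 0.701 in the siCtrl inputs and at 0.883 and 1.00 in the siFBL inputs, higher by 0.197 without overlap (adjusted p = 0.931). With the far start it was at 0.970 and 1.00 against 0.838 and 1.00, from 47 reads per library. The ACSL3 107-base exon joined directly to the first exon was at 0.853 and 0.931 against 0.414 and 0.566, a difference of -0.402 (adjusted p = 0.931), whereas after the 59-base exon, in the event with more reads, it was at 0.482 ± 0.0563 and 0.433 ± 0.0468. For HMGCS1 exon 2 the 2 siCtrl inputs went apart: the 59-base form from the first exon at 43313356 had 28 inclusion and 41 skipping reads in the one and 4 and 0 in the other. Its level was thus 0.329 and 1.00, beside 0.913 and 0.829 in the siFBL inputs, and no direction is read from it. From the first exon at 43313022 it was at 0.125 and 0.170 against 0.682 and 1.00, from 19 reads per library. The ACSL5 135-base coding exon (chr10:112416888-112417022) was at 0.873 and 1.00 against 1.00 in both siFBL inputs. The FASN events were included at 0.996 or more on average in both groups.

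The same reads also give a level per gene, here the sum of the length-scaled junction reads over the listed events of a gene, in RPM of the library. It covers listed events only, so it is compared between groups within a table and neither between genes nor between tables. Reads of a junction shared by several events are counted once for each of those events. As a share of the reads of a library, it also moves with the levels of the other genes. In bulk cultures, a smaller share of cells with an RNA and less of that RNA in each cell cannot be told apart.

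After U3 KD the levels of 5 of the 8 genes fell and those of none rose (limma, adjusted p under 0.1). Among the 8359 genes tested for U3 KD, 10.4% were called lower and 35.7% higher, which is 870 and 2985 genes. With the libraries scaled on the median gene these were 1597 and 1503, and 6 of the 8 genes were then called lower and none higher. HMGCS1 fell furthest: it was at 690, 742 and 713 RPM in the GFP ASO libraries and at 253, 221 and 239 in the U3 ASO libraries. The log2 change was -1.59 ± 0.0684 (SE, adjusted p = 6.80e-11), to 33.3% of control, and only 0.802% of all genes tested had as low a change. The groups stand far apart, with every U3 ASO library below every GFP ASO library.

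The enzymes at both ends of fatty acid synthesis also fell. ACLY was at 1842, 1781 and 1857 RPM in the controls and at 928, 972 and 854 with U3 ASO, a log2 change of -0.99 ± 0.0523 (adjusted p = 8.57e-10). FASN was at 1149, 993 and 1089 against 576, 624 and 545, a log2 change of -0.89 ± 0.0653 (adjusted p = 4.54e-08). ACACA, the enzyme between them, was at 0.944, 27.7 and 1.27 against 14.1, 10.6 and 0.752, which reflects the single-library reads described above, and it was not called.

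The acyl-CoA synthetases divided. ACSL4 was at 228, 259 and 234 RPM in the controls and at 131, 126 and 136 with U3 ASO, a log2 change of -0.88 ± 0.0863 (adjusted p = 1.15e-06). This ACSL4 level was summed over 3 events of 1 exon, the noncoding exon 2, and covers no other part of the gene. ACSL3 was at 634, 737 and 687 against 507, 577 and 550, a log2 change of -0.33 ± 0.0681 (adjusted p = 0.00116). ACSL5, at 170 ± 19.6 and 167 ± 2.13, and ACSL1, at 83.0 ± 2.88 and 94.1 ± 8.23, were not called, with log2 changes of -0.02 and +0.18. Over all genes the median log2 change was +0.27, so the 5 calls lie lower still against the median gene. With the libraries scaled on the median gene, ACSL5 was also called lower, at -0.26 (adjusted p = 0.0537), and ACSL1 turned to -0.06. The smallest p that an exact permutation test of 3 against 3 libraries can give is 0.1, two-sided, and it gave that value for the 5 genes called and for ACSL1, which did not overlap either, at 79.7 to 84.7 and 88.9 to 103.6 RPM.

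**Figure D2:**
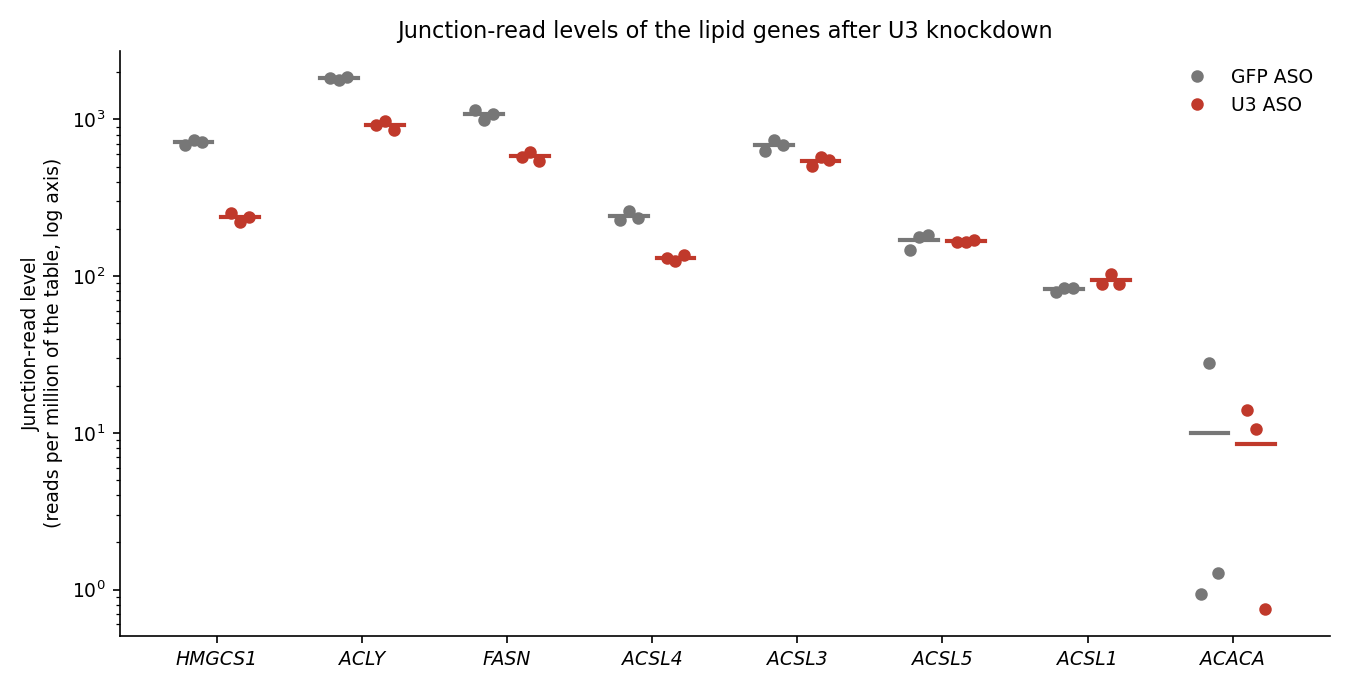
Junction-read level (y axis, RPM, log axis) of the 8 genes in each GFP ASO library (grey) and U3 ASO library (red), with bars at the group means and genes ordered by log2 change. HMGCS1, ACLY, FASN, ACSL4 and ACSL3 are lower in every U3 ASO library than in every control, and ACACA scatters from 0.752 to 27.7.

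Of the other genes of lipid synthesis, listed by pathway, those of sterol synthesis fell together with HMGCS1 after U3 KD. Of 14 tested, 13 fell and 1, PMVK, rose, with a median log2 change of -0.96 beside +0.27 over all genes. LSS, which closes the sterol rings, was at 35.4% of control, and FDPS, which makes farnesyl diphosphate, at 39.9%. In fatty acid synthesis and modification 8 of 16 fell and 3 rose, among the former the desaturases SCD (29.4% of control), FADS1 (30.9%) and FADS2 (22.8%). The 3 that rose were FADS3 (258% of control), MECR (168%) and ACACB (135%), so the FADS genes did not all move the same way. Of 13 other acyl-CoA synthetases 1 fell, ACSS2, which makes acetyl-CoA from acetate (44.9%), and 4 rose, while in glycerolipid synthesis 5 of 11 rose and none fell, beside the 35.7% of all genes called higher. Of 9 regulators 3 fell, among them SREBF1 (55.6%) and SREBF2 (79.6%), and 3 rose, SCAP, MBTPS1 and MLXIPL. With median scaling the sterol count was 13 lower and none higher, and that of fatty acid synthesis and modification 9 lower and 1 higher. The rises in the other lists were mostly lost: the acyl-CoA synthetases then had 2 lower and 1 higher, glycerolipid synthesis 2 lower and 1 higher, and the regulators 4 lower and 1 higher.

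**Figure D3:**
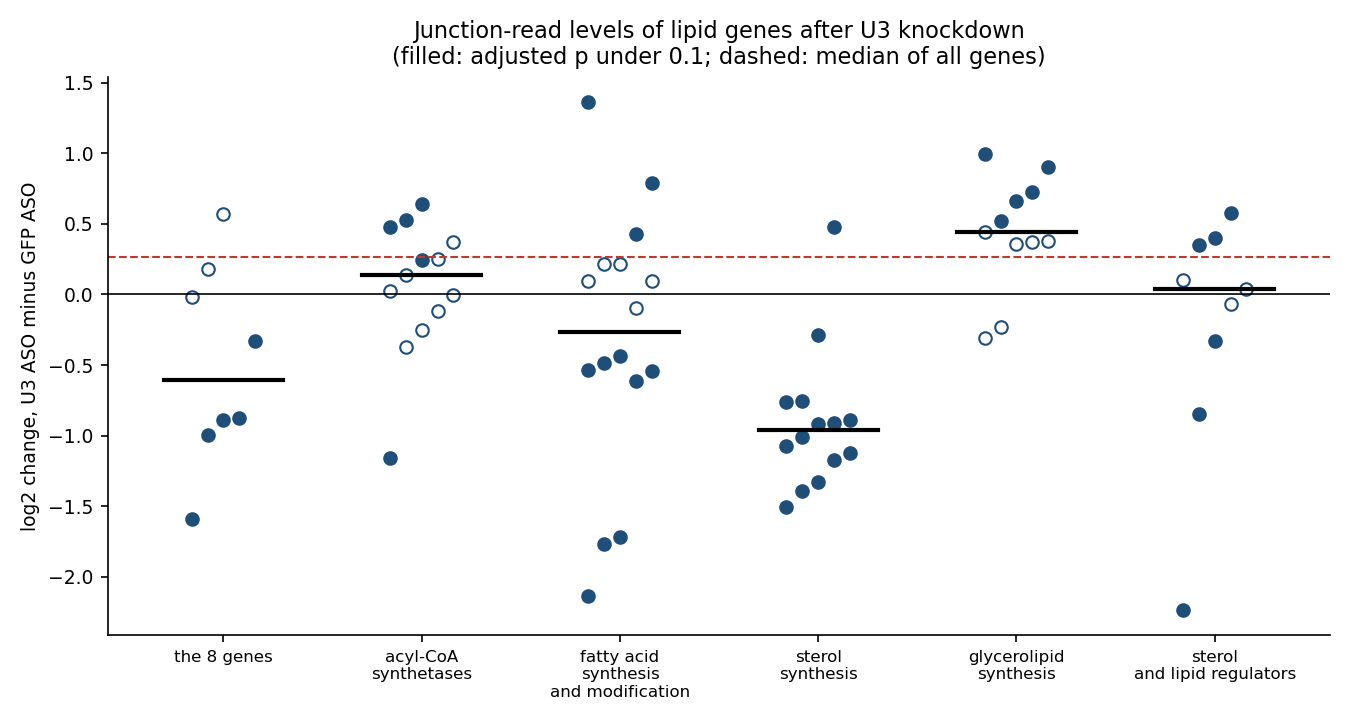
Log2 change of junction-read level between U3 ASO and GFP ASO (y axis) for the 8 genes and for 5 lists of other lipid genes (x axis), 1 point per gene, filled where the adjusted p is under 0.1, with a bar at each list's median. The dashed line marks the median of all genes, +0.27, and 13 of the 14 sterol synthesis genes lie below 0.

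The promoters of HMGCS1 and ACLY, which had the lowest log2 changes of the 8 genes after U3 KD, are shown because most sterol genes moved with them. They are the 250 bases before the outermost start in RefSeq (GRCh38.p14), with CCAAT on either strand in capitals (ATTGG on the reverse):
HMGCS1 (chr5:43313413-43313662, minus strand): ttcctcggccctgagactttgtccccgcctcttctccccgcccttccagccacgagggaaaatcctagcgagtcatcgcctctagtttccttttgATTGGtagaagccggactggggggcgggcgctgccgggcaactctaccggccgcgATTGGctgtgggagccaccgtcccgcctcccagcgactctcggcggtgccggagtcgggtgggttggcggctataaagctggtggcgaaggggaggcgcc
ACLY (chr17:41919023-41919272, minus strand): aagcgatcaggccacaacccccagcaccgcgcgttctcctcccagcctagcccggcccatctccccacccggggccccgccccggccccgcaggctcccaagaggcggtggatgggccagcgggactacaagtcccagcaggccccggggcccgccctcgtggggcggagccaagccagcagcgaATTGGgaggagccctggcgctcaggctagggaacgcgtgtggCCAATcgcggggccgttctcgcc
Each held 2 matches, beginning 155 and 100 bases before the HMGCS1 start and 65 and 23 bases before the ACLY start. CCAAT was found in the promoters of 12 of the 14 listed sterol synthesis genes with a promoter entry, 5 of the 7 genes of the set that matched and 37.0% of all 27305 genes. Within the set, HMGCS1, ACLY and ACSL3 fell and held CCAAT in a promoter, while ACSL4 fell and held none. ACSL1 and ACACA held it and were not called in the main test, and ACSL5, not called there either, held none. Whether CCAAT goes with the change of level was not tested. The sterol genes were matched here by name and not by their level after U3 KD. Genes differ in how many promoters they have, and per promoter the numbers were 14 of 18 for sterol synthesis, 7 of 16 for the set (43.8%) and 32.0% of all 35116. The SREBP-type motif TCACNCCAC was in neither promoter and in 0 of the 14 sterol genes with an entry. It was in 1 of the 7 genes of the set (ACSL1, which did not fall), and in 1.09% of all genes. Only this string was searched, over 250 bases, so its absence does not show that a promoter lacks SREBP sites. The 2 motifs do not overlap each other in letters, and FASN had no entry.

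After FUBP1 KD the levels are given as a description. Of 7 genes listed, 4 passed the threshold upward and none downward, beside 5.43% and 5.84% of the 6082 genes, a count from which nothing is read because this KD took part in the choice. ACSL5 was at 146, 177 and 138 RPM in the siCtrl2 libraries and at 205, 310 and 248 with siFUBP1, and ACLY at 277, 285 and 305 against 414, 383 and 420. ACSL4 was at 1986 ± 126 and 2412 ± 94.1, and FASN at 498 ± 55.0 and 660 ± 50.5. These 4 genes did not overlap between groups. How many of all genes did not overlap is not given here, so nothing is read from this either. ACSL3 (log2 change -0.13), HMGCS1 (+0.10) and ACSL1 (+0.83, from 33.8 reads per library) did not pass it. ACSL4 and FASN no longer passed it without siCtrl2 library 1 and when only the event with most reads was taken.

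After FBL KD, 1 of the 7 genes listed in the inputs fell and none rose, beside 1.76% of the 2902 genes called lower and 0.655% called higher. FASN was at 3280 and 3621 RPM in the siCtrl inputs and at 2549 and 2703 in the siFBL inputs, a log2 change of -0.39 ± 0.0921 (limma, adjusted p = 0.0505). The call was lost with median scaling, where the log2 change was -0.23, and without either siCtrl input library or siFBL input library 1. ACSL3 was at 3011 ± 261 and 3054 ± 42.3. ACSL4 (log2 change -0.55), ACLY (+0.11), ACSL5 (+0.62), HMGCS1 (+0.88) and ACSL1 (+1.42) had SE from 0.266 to 0.988 and could not be told from their controls at this depth. The levels of ACSL4, ACLY, ACSL5 and ACSL1 came from events of 1 exon each. The exact permutation test of 2 against 2 libraries cannot go below 0.333.

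**Figure D4:**
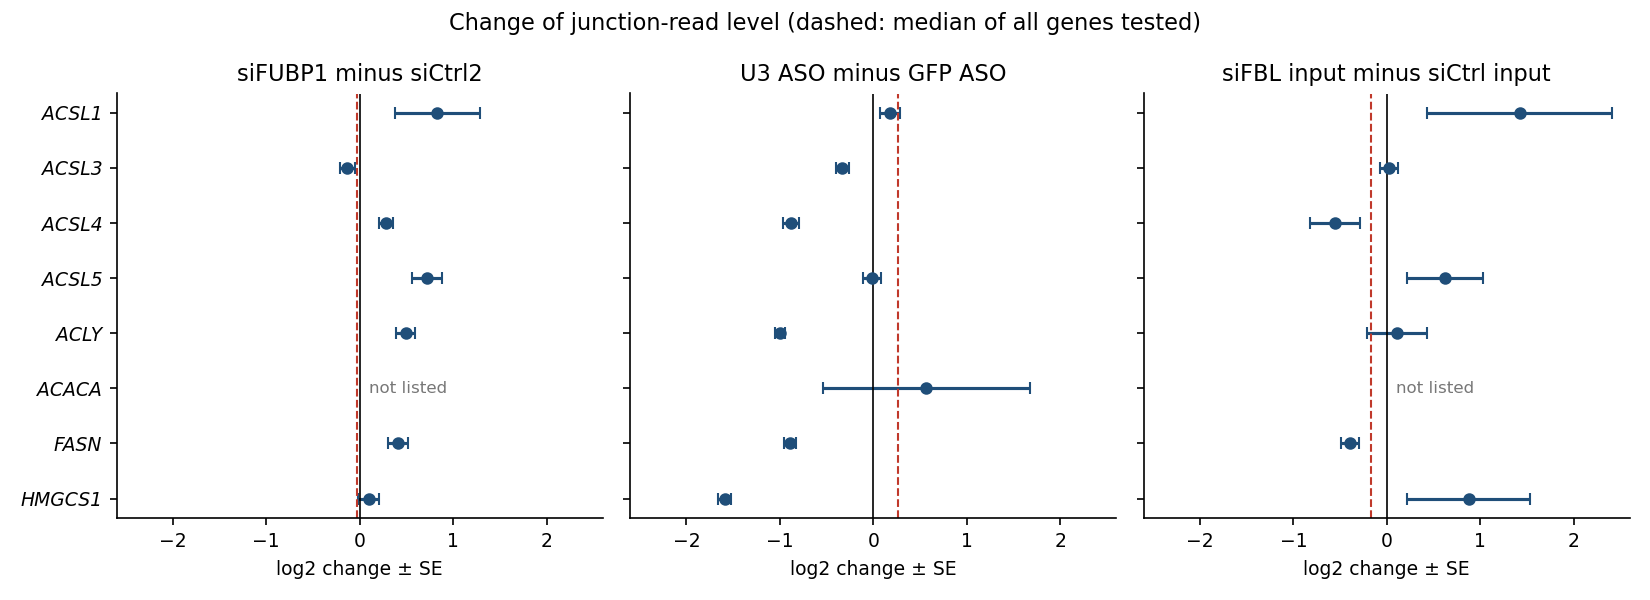
Log2 change of junction-read level (x axis, points with SE) of the 8 genes (y axis) in the 3 knockdowns, with a solid line at 0 and a dashed line at the median of all genes tested. After U3 KD the points of HMGCS1, ACLY, FASN and ACSL4 lie between -1.59 and -0.88, while after FUBP1 KD none of the 7 genes lies below -0.13.

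The RIP experiment measured how much of each transcript came down with FUBP1. The enrichment is the log2 ratio of RIP over input that the authors' DESeq2 fit gave for each condition, and among these 8 genes it went from strong enrichment to strong depletion. In siCtrl cells ACSL4 had an enrichment of 3.26 ± 0.0456 (SE), 9.55-fold, and 96.7% of the 11581 genes compared were at or below it. HMGCS1 followed at 2.56 ± 0.0502 (5.89-fold) and ACSL3 at 1.61 ± 0.0391 (3.05-fold). ACSL5 at 0.22 ± 0.0693 and ACSL1 at -0.27 ± 0.125 were near the median gene, which was at 0.15. ACLY was at -0.53 ± 0.0451 and ACACA at -0.89 ± 0.267. FASN stood at the other end, at -3.14 ± 0.0417, so that it was 8.79-fold more abundant in input than in RIP, and only 5.39% of genes were as low. Of neighbours in this order, ACSL1 and ACLY, and ACLY and ACACA, lay within 2 combined SE of each other, and the other neighbours were further apart.

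After FBL KD, 3 of the 8 genes changed in enrichment, HMGCS1 and ACSL4 downward and FASN upward, beside 8.18% of the 11581 genes called lower and 6.57% called higher (difference of the deposited values with combined SE, adjusted p under 0.1). HMGCS1 went to 2.21 ± 0.0380, a difference of -0.35 ± 0.0629 (adjusted p = 2.40e-06). ACSL4 went to 2.95 ± 0.0333, a difference of -0.31 ± 0.0565 (adjusted p = 2.58e-06). FASN went to -2.30 ± 0.0313, a difference of +0.83 ± 0.0521 (adjusted p = 1.61e-53). The inputs under this ratio also gave the junction-read level of FASN, which was lower after FBL KD (log2 change -0.39). The 2 FASN results thus share libraries, and the part of the input in the enrichment difference was not tested. All 3 genes kept their place in the order: ACSL4 and HMGCS1 were still 7.70-fold and 4.63-fold enriched, and FASN was still 4.93-fold lower in RIP than in input. ACSL3 (-0.06 ± 0.0460), ACSL5 (-0.20 ± 0.0852), ACLY (+0.05 ± 0.0659), ACSL1 (+0.04 ± 0.164) and ACACA (+0.33 ± 0.348) were not called.

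These changes share a feature with the table as a whole. All 8 genes were nearer to 0 in siFBL than in siCtrl cells, as were 72.2% of all genes, and a line of the siFBL on the siCtrl enrichment over all genes had a slope of 0.868. Measured as the distance from that line, an alternative chosen after seeing the data, HMGCS1 was at -0.02 (adjusted p = 0.963) and ACSL4 turned to +0.11 (adjusted p = 0.501), so neither call held. FASN kept +0.41 (adjusted p = 1.23e-11), and ACSL3 became a call at +0.14 (adjusted p = 0.0780). On that scale 1.10% of genes were called lower and 2.07% higher. The mean count of FUBP1 itself was 14260 in the siCtrl and 8689 in the siFBL fit, which were scaled separately, and its part in the smaller spread was not tested.

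**Figure D5:**
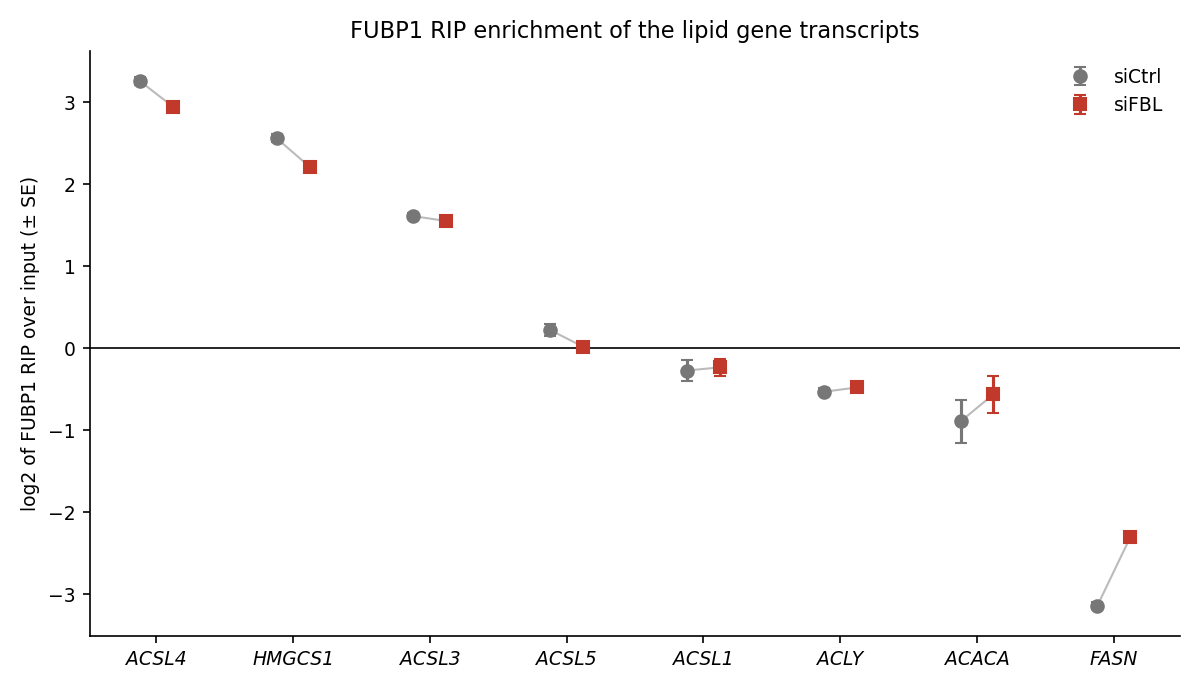
FUBP1 RIP enrichment (y axis, log2 of RIP over input, bars are the deposited SE) of the 8 genes (x axis, in order of the siCtrl value) in siCtrl (grey circles) and siFBL cells (red squares). ACSL4, HMGCS1 and ACSL3 lie above 1.5 in both conditions and FASN below -2.3, and every pair moves toward 0.

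Other genes of lipid synthesis were also found at both ends of the enrichment scale. In sterol synthesis 7 of 19 genes compared were above 0 in siCtrl cells, from IDI1 at 3.31 to DHCR7 at -3.81, with a median of -1.89. Of 20 in fatty acid synthesis and modification 10 were above 0, with a median of -0.04, among them ELOVL2 at 2.95 and FADS2 at -3.19. The other 15 acyl-CoA synthetases had a median of -1.94 and 3 above 0, of which ACSS3 was the highest at 1.54 ± 0.0602 (SE). That lies within 2 combined SE of ACSL3, at 1.61 ± 0.0391, so ACSS3 and ACSL3 are not ranked. After FBL KD 5 of the sterol synthesis genes were called lower and 6 higher. In fatty acid synthesis and modification 5 were called lower and 1 higher, and of the acyl-CoA synthetases 2 were called higher and none lower. These counts stand beside 8.18% of all genes called lower and 6.57% called higher. Measured from the line over all genes, 0 of the sterol synthesis genes were lower and 1 higher, 1 was lower and 1 higher in fatty acid synthesis and modification, and 0 of the acyl-CoA synthetases passed.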

How the data were processed

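The members and the lists of other genes were chosen with earlier results of these data known. Polyadenylated RNA (KDs) and RIP and input RNA were sequenced. The authors trimmed adapters with Cutadapt, aligned reads to hg38 with HISAT2, and counted junction reads of SE events with rMATS, deposited as lists of reads per library. For RIP, the authors compared RIP with input by DESeq2 on gene counts (HTSeq in the methods, featureCounts in the labels) and deposited log2 fold changes with SE, together with a mean normalized count, treated here as a score because each condition had its own scale. Versions are not given in the sources used here.

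Inclusion levels were recomputed from the reads. Events with a mean of 10 or more reads per library were tested with a quasi-binomial F test whose dispersion was moderated with limma 3.58.1 (R 4.3.3). The moderation replaced each event's own dispersion with a trend over the events of its table. That trend ran from 5.92 to 7.04 after FUBP1 KD, 6.58 to 8.69 after U3 KD and 5.635 to 15.9 after FBL KD. Levels were tested with limma with a variance trend on log2 values with 0.5 read added. Enrichment differences were tested as z values over genes with a mean count of 50 or more. All p-values were two-sided and adjusted by Benjamini-Hochberg over each whole table, and a call needed an adjusted p under 0.1. Each test was tested on simulated data. Named events had a mean inclusion between 0.05 and 0.95 in a group, a change of 0.05 or more, or the most reads of their gene. The authors' own p-values, adjusted p-values and inclusion differences were not used, nor were 6 columns of inclusion levels per library that carry no sample names. The alternatives were other tests, filters, scalings and pseudocounts, and each library left out in turn. Some genes of the lists are counted but not reported by name here.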

Additional observations from a re-analysis of the deposited data

How the results depend on the processing

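No paired analysis was possible because the lists of reads carry no library numbers and the RIP table holds 1 value per condition. With limma on log2 odds, calls after FUBP1 KD went from 2 to 0 events of the 8 genes and from 25 to 8 events in all (2 with a variance trend), and after U3 KD from 55 to 0 events in all with either. Leaving out each library gave 0 to 1 events of the 8 genes and 12 to 25 in all after FUBP1 KD, and 29 to 47 in all after U3 KD. Pearson residuals, added after seeing the data, gave 32, 66 and 0 events in all after FUBP1, U3 and FBL KD. For levels after FUBP1 KD, the event with most reads alone gave 2 calls, and leaving out libraries 2 to 4. The FASN call after FBL KD went to 0 with the event with most reads alone and with median scaling, and to between 0 and 1 without single libraries.

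Several log2 changes that were not called turned direction. After U3 KD these were ACACA (-2.09 from the event with most reads, -0.29 to 2.09 without single libraries), ACSL1 (-0.062, median scaling) and ACSL5 (-0.12 to 0.042 without single libraries). After FBL KD they were ACSL3 (-0.076 from the event with most reads, -0.065 to 0.11 without single libraries), HMGCS1 (-0.31 to 2.06) and ACLY (-0.0041 to 0.22). Measured from the line over all genes, also added after seeing the data, the enrichment differences of ACSL1 (-0.011), ACSL3 (0.14), ACSL4 (0.11) and ACLY (-0.031) turned, of which that of ACSL4 had been called. The cause was not tested. The 5 level calls after U3 KD numbered 5 or 6 under every alternative run. The FBL KD table had the fewest reads and 2 libraries per group.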

Other observations

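Among the regulators of sterol and lipid synthesis, MLXIPL, a glucose-responsive transcription factor of lipogenic genes, was lower after FUBP1 KD, at 328 ± 13.9 and 169 ± 39.3 RPM in the siCtrl2 and siFUBP1 libraries (log2 change -0.98, n = 3 each). FDPS was higher, at 742 ± 37.6 and 1139 ± 31.9 RPM (log2 change +0.62).

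An exon of FDPS (chr1:155309789-155309965, 177 bases) had an inclusion level of 0.493 ± 0.0587 in the siCtrl2 and 0.320 ± 0.0662 in the siFUBP1 libraries. After U3 KD the same exon went from 0.280 ± 0.0427 to 0.439 ± 0.0434, and after FBL KD from 0.669 and 0.889 to 0.476 and 0.429. The groups did not overlap in any of the 3 tables, and no table called it. How many of all events did not overlap is not given here. The FDPS exon is among the listed lipid gene events with an unadjusted p under 0.05 (quasi-binomial F test). Nothing is therefore read from its separation. An exon of SREBF1 (chr17:17823518-17823607, 90 bases) was called after U3 KD, at 0.192, 0.241 and 0.439 in the GFP ASO libraries and 0.0847, 0.137 and 0.0437 with U3 ASO (quasi-binomial F test moderated with limma, adjusted p = 0.0994). With limma on log2 odds it was not called, as 0 of the 30110 events were.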
